A study of Mus musculus with 6 samples.

Results

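Potassium channel genes were read from biopsies of mouse skin, 3 of healthy skin and 3 of skin tumors, on 1-colour Agilent microarrays. The genes are those whose name on the array begins with Kcn, the stem that mouse nomenclature gives to potassium channel subunits and the proteins that assemble with them. The array carries 138 probes for 95 such genes. A probe was kept when 3 or more of the 6 arrays gave a signal well above background, which left 68 probes for 55 genes. The brightest kept probe stood for its gene. All biopsies came from female FVB/N mice, an inbred strain. The healthy skin had been painted with acetone, the solvent. The tumors, which the labels call cSCC (cutaneous squamous cell carcinoma), followed DMBA, a mutagen, then 6 weeks of PMA (also called TPA), a phorbol ester that promotes tumors, then DMBA again and 14 more weeks of PMA. Both agents reached the tumor samples alone, so tumor and treatment cannot be told apart. The labels do not say that the biopsies of a group came from different mice, so each p-value measures the spread between these samples, which may be technical.

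Potassium channels let potassium leave the cell down its gradient and so set the resting voltage, end each electrical impulse, and help to fix cell volume and fluid secretion. The voltage-gated, the calcium- or sodium-activated, the inward rectifier and the two-pore-domain channels form separate families of pore proteins. Small auxiliary subunits change how the pores open or how many reach the membrane. In skin they are found in keratinocytes, sweat glands, vessels, immune cells, nerve fibres and the muscle under the dermis. In whole biopsies, fewer cells of a type and less RNA per cell cannot be told apart.

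Levels are given as relative log2 signal, the log2 of the background-subtracted signal minus the 75th percentile of its array, so 0 is the 75th percentile itself and most of these genes lie below it. Differences are tumor minus healthy skin on the log2 scale, with the standard error (SE) of the fit. They were tested with limma, with Benjamini-Hochberg adjustment over 24756 features and an adjusted p threshold of 0.05. Between 48.7% and 65.4% of the spots of an array lay well above background. The arrays of healthy skin found 70, 71 and 57 of the 138 potassium channel probes and those of tumors 36, 67 and 74. Tumor replicate 1 had the highest background, with a median of 85 against 23 to 26 signal units on the other arrays, and healthy replicate 3 had the dimmest signal.

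Of the 55 measured potassium channel genes, 3 were higher in tumors, 16 were lower and 36 did not pass the test. The 3 higher genes are 5.45% of those measured, while 10.3% of all features were higher. The 16 lower genes are 29.1%, while 15.6% of all features were lower. The median difference was -0.66 over the potassium channel genes and -0.16 over all features. With the 3 genes that had only a bound in tumors set at that bound the median was the same. The difference was negative for 40 genes and positive for 15. The groups did not overlap, with all tumors above all healthy samples, for 4 genes, and with all tumors below, for 23, against 20.7% and 29.0% of all features. The 29 genes above background on all 6 arrays held 2 higher and 4 lower genes, 6.90% and 13.8%, beside 11.1% and 11.6% of the features with that detection. Among the genes seen on every array the lower share was close to that of the features with that detection. This filter drops any gene that fell to background on a tumor array, so falls of that kind are left out by construction. Without tumor replicate 1, the array with the highest background, the counts were 3 higher and 9 lower. Without healthy replicate 3 they were 3 and 11, and without both arrays 4 and 10. In that order the lower genes were 16.4%, 20% and 18.2% of those measured, beside 11.0%, 13.1% and 12.2% of all features. The share of all features called higher was 6.50%, 8.98% and 8.61%. Scaling by another part of the signal also moved the balance. With the arrays scaled to their median 4 were higher and 10 lower, and the median of all features was 0.21. Scaling to the spike-in controls gave 3 higher and 5 lower, and the median of all features was 0.73. The lower genes were then 18.2% and 9.09% of those measured, beside 10.4% and 3.16% of all features. The share of all features called higher was 17.7% and 7.69%. Under spike-in scaling the median of the potassium channel genes turned to 0.23, still below that of all features.

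**Figure D1:**
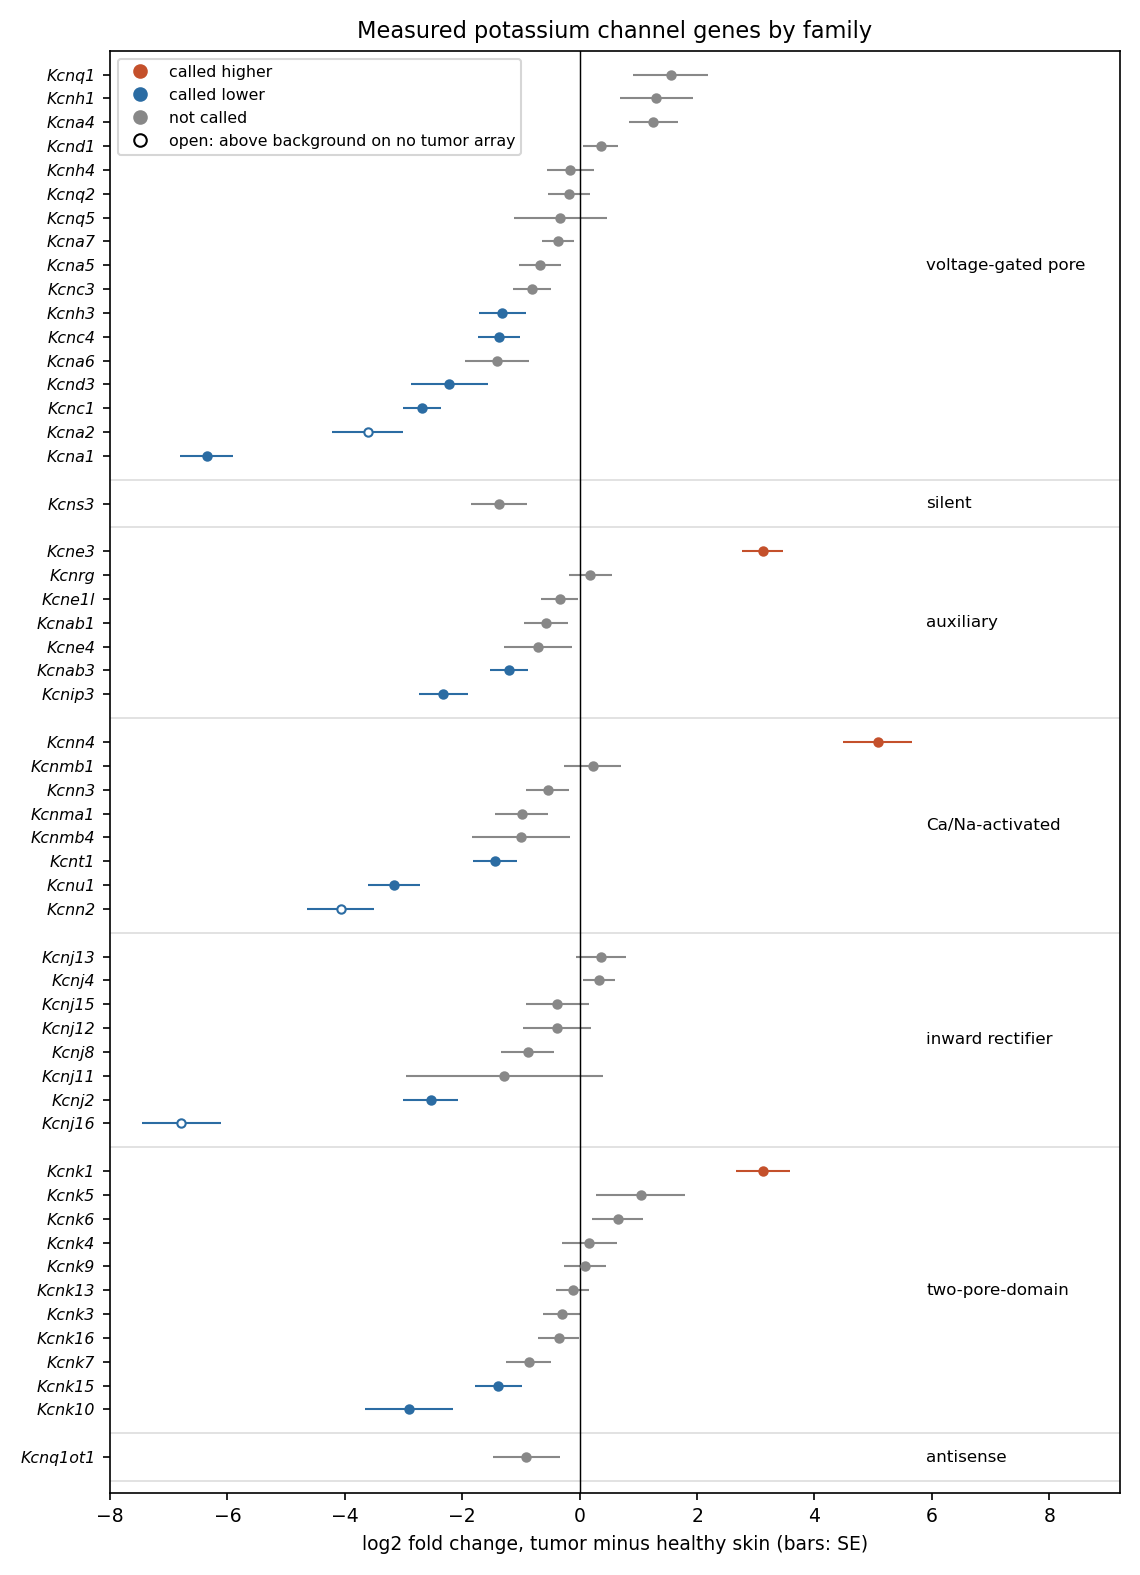
Log2 difference (tumor minus healthy skin, x axis, with the standard error as bars) of the measured potassium channel genes, grouped by family, without those not reported here. Red points were called higher, blue points lower, grey points did not pass the test, and open points are the 3 genes above background on no tumor array; the values run from -6.79 for Kcnj16 to 5.08 for Kcnn4.

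The 3 genes that rose are a calcium-activated pore, a two-pore-domain pore and an auxiliary subunit. Kcnn4 encodes the intermediate-conductance calcium-activated channel, known from red blood cells, lymphocytes and secretory epithelia. Its probe lies at chr7:25169184-25169782 (mm9). Its relative log2 signal was -2.93, -3.39 and -4.30 in healthy replicates 1, 2 and 3 and 1.69, 2.50 and 0.43 in tumor replicates 1, 2 and 3. Every tumor lay above every healthy sample, and 2 of the 3 healthy arrays were above background. The rise was 5.08 ± 0.58 (SE), or 33.8-fold, with a limma adjusted p of 0.00162.

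Kcne3 is a single-pass subunit that holds the voltage-gated channel Kcnq1 open at rest and is known for its part in the salt and water secretion of epithelia. It was read by 2 probes that lie on chromosome 7 (mm9) at 107333062 to 107333121 and at 107332867 to 107332926. The brighter probe gave -2.90, -2.45 and -2.33 in healthy skin and 1.15, 0.21 and 0.31 in tumors, with no overlap. Its rise was 3.12 ± 0.35 (SE), 8.68-fold, with a limma adjusted p of 0.00152, and with each probe tested by itself the other probe rose by 3.48. Kcnq1, the pore that Kcne3 joins, stood at -2.47, -1.91 and -0.92 in healthy skin and -1.34, 0.93 and -0.26 in tumors. These groups overlapped, and the difference of 1.55 did not pass the test (limma adjusted p 0.110).

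Kcnk1 is a two-pore-domain channel, a family that carries the background leak of potassium, and was read at chr8:128554281-128554340 (mm9). The healthy samples lay at -3.43, -3.04 and -3.87 and the tumors at -0.91, -0.65 and 0.60, again without overlap. Kcnk1 rose by 3.13 ± 0.45 (SE), 8.73-fold, with a limma adjusted p of 0.00380. Kcnn4, Kcne3 and Kcnk1 passed the test under all alternatives in which they were measured, 20 for Kcnn4 and 21 for each of the others. Over these the rise ran from 3.83 to 5.97 for Kcnn4, from 2.60 to 4.01 for Kcne3 and from 2.20 to 4.02 for Kcnk1.

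The 300 bases around the transcription start of these genes are shown because these are the 3 called higher, and shared regulation was not tested. They run from 250 bases before to 50 bases after the start, from RefSeq (GRCm38.p6), and were searched on both strands for the AP-1 site TGANTCA, the E-box CAGCTG and the cAMP response element TGACGTCA, none of which overlaps another here. Matches are in capitals. The AP-1 match of Kcne3 begins 37 bases before the start, and its other start and the promoters of Kcnn4 and Kcnk1 hold none of these motifs.
Kcnn4, chr7:24370013-24370312, plus strand: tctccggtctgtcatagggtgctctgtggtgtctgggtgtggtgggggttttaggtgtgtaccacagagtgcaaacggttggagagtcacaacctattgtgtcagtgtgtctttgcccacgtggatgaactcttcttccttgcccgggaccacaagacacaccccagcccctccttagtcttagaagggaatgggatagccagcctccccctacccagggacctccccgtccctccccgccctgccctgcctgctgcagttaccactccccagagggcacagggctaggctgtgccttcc
Kcnk1, chr8:125994852-125995151, plus strand: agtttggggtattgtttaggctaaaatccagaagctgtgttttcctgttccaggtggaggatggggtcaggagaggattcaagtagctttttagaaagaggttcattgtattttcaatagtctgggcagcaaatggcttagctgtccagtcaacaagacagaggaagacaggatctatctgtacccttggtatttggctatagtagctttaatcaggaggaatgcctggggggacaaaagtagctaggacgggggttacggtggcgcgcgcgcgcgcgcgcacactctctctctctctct
Kcne3, chr7:100176420-100176719, plus strand: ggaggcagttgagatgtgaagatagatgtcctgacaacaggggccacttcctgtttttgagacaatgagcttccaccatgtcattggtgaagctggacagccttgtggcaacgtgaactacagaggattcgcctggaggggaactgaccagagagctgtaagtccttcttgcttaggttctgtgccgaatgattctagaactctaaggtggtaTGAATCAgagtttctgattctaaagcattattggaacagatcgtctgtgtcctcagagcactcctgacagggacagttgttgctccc

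Among all 32851 promoters in that table, 7.81% hold the AP-1 letters, 16.3% the E-box and 1.79% the cAMP response element. The table holds 50 promoters of 39 of the measured potassium channel genes, of which 2 hold the AP-1 letters and 11 the E-box. Both matches to AP-1 lie in genes past the test, Kcne3 among the 4 promoters of the higher genes and Kcnip3 among the 15 promoters of 9 lower genes. The E-box stands in 6 of those 15 promoters, of Kcnip3, Kcnd3, Kcna2, Kcnj16 and Kcnj2, and in 0 of the 4. The cAMP response element stands in 0 of the 50. A match is a run of letters, and binding was not measured.

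Voltage-gated pores, which open when the membrane depolarizes, made up 19 of the measured genes. By the limma test 0 were higher, 7 were lower and 12 did not pass, and at an unadjusted p of 0.05, 2 were higher and 9 lower. Their median difference was -0.68, and 0.21 under spike-in scaling. By the limma test 36.8% of these pores were lower, beside 15.6% of all features. The lower share was 28.6% of the auxiliary subunits and 37.5% of the calcium- and sodium-activated group. It was 25% of the inward rectifiers and 18.2% of the two-pore-domain channels. The share of all features at an unadjusted p of 0.05 was not counted, so such counts, here and below, have no share beside them. The largest fall was that of Kcna1, a delayed rectifier best known from myelinated axons, where it lies beside the nodes. Its probe lies at chr6:126586524-126586583 (mm9). Kcna1 stood at 0.33, 0.67 and 1.73 in healthy skin, close to the 75th percentile, and at -5.83, -5.63 and -4.86 in tumors. The groups lay far apart, and 2 of the 3 tumor arrays were above background. The difference was -6.35 ± 0.45 (SE), 81.8-fold lower, with a limma adjusted p of 3.9e-04.

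Kcna2, which assembles with Kcna1 in axons, gave -3.68, -3.72 and -3.65 in healthy skin and -5.80, -7.93 and -8.15 in tumors. No tumor array was well above background, so the signal there is only a bound. A bound on such a fold sets the healthy mean against a floor, for which each tumor array gives its dimmest signal that still counts as well above background, or that of the probe where this is greater. On that basis Kcna2 was at least 2.68-fold lower (fitted difference -3.61 ± 0.60 SE, limma adjusted p 0.00622).

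The silent subunits, which form no channel alone and join voltage-gated pores, were hardly detected. Of 10 on the array 1 was measured, Kcns3, with a difference of -1.38 that did not pass the test (limma adjusted p 0.0721).

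Kcnc1 encodes a fast delayed rectifier that lets neurons fire at high rates, and Kcnc4 a fast-inactivating channel of the same group. Kcnc1 was read by 3 probes, all called lower. The brightest stood at -1.03, -1.35 and -0.55 in healthy skin and -3.97, -3.47 and -3.55 in tumors. The groups were separate, with a difference of -2.69 ± 0.32 (SE), 6.44-fold, and a limma adjusted p of 0.00182. The other 2 probes were above background on no tumor array and were at least 3.49-fold and 2.96-fold lower. Kcnc4 fell 2.59-fold (limma adjusted p 0.0302).

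Kcnd3 forms the pore of the transient outward, or A-type, current, and Kcnip3 is a calcium-binding subunit of the same channels that also acts as a repressor of transcription. Kcnd3 stood at -2.30, -1.45 and 0.46 in healthy skin and -3.004, -3.51 and -3.44 in tumors. The healthy samples were widely spread and healthy replicate 1 came close to the tumors, so that the difference of -2.22 ± 0.66 (SE) passed narrowly, with a limma adjusted p of 0.0443. Without healthy replicate 3 it was -1.44. Kcnip3 lay at 0.24, 0.42 and 1.03 in healthy skin and -1.90, -2.36 and -1.02 in tumors. It did not overlap, and it fell by 2.32 ± 0.42 (SE), 5.01-fold, limma adjusted p 0.00811. Kcnd1, the other measured pore of the Kcnd group, differed by 0.36 (limma adjusted p 0.397). The Kcnip3 promoter is shown because it holds both an AP-1 match and an E-box, 122 and 140 bases before the start.
Kcnip3, chr2:127522045-127522344, minus strand: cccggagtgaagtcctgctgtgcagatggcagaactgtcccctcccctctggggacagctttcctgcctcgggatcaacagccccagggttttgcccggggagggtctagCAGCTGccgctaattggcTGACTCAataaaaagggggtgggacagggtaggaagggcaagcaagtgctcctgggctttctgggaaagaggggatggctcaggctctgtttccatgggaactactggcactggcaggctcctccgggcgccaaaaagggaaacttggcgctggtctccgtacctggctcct

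Kcnh3, a pore of the ether-à-go-go group, fell 2.49-fold (limma adjusted p 0.0476), and Kcnab3, a cytoplasmic beta subunit, fell 2.31-fold (limma adjusted p 0.0317), with 2 of 3 healthy and 1 of 3 tumor arrays above background. The auxiliary subunits of voltage-gated channels numbered 7 measured of 13 on the array, with 1 higher (Kcne3), 2 lower (Kcnip3 and Kcnab3) and 4 not called. Kcnq1ot1, the noncoding antisense transcript of the imprinted Kcnq1 locus, differed by -0.91 with overlapping groups (limma adjusted p 0.262).

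Of the calcium- and sodium-activated group, 8 of 12 genes were measured, with Kcnn4 higher, 3 lower and 4 not called. Kcnn2, a small-conductance calcium-activated channel of nerve and muscle, gave -3.39, -2.28 and -2.36 in healthy skin and -5.76, -7.87 and -6.61 in tumors. It was above background on no tumor array and at least 5.39-fold lower (fitted difference -4.07 ± 0.58 SE, limma adjusted p 0.00345). Kcnn2 and Kcnn4 belong to the same group and moved in opposite directions.

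Kcnu1, an alkali-activated channel known from sperm, stood at -2.44, -2.22 and -0.87 in healthy skin and -5.25, -4.77 and -4.99 in tumors. No tumor reached a healthy value, and the difference was -3.16 ± 0.45 (SE), 8.93-fold, limma adjusted p 0.00346. Kcnt1, a sodium-activated channel, lay at -4.42, -3.36 and -3.18 in healthy skin and -5.20, -5.12 and -4.95 in tumors. The gap between healthy replicate 1 and the highest tumor was small, and Kcnt1 fell by 1.44 ± 0.38 (SE), 2.71-fold, limma adjusted p 0.0302. Kcnma1, the large-conductance calcium-activated pore, differed by -0.99 (limma adjusted p 0.139), and its beta subunits Kcnmb1 and Kcnmb4 did not pass either (limma adjusted p 0.759 and 0.400).

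Inward rectifiers pass potassium more easily into the cell than out and hold the resting voltage; 8 of 15 were measured, with 0 higher and 2 lower by the limma test, as at an unadjusted p of 0.05, and a median of -0.63 that turned to 0.26 under spike-in scaling. Kcnj16, a pH-sensitive subunit read at chr11:110889223-110889282 (mm9), gave -0.86, -0.69 and 0.63 in healthy skin and -5.69, -7.97 and -7.63 in tumors. No tumor array was above background, and Kcnj16 was at least 27.9-fold lower (fitted difference -6.79 ± 0.67 SE, limma adjusted p 0.00101). Kcnj10, the pore subunit with which Kcnj16 assembles, was above background on 2 arrays, both of tumors, and so was not among the measured genes. Its values were -6.43, -7.48 and -6.53 in healthy skin and -3.99, -1.20 and -1.48 in tumors. Kcnj10 was called higher when all features were tested without the filter on detection. That call rests on signals not above background in every healthy sample and in tumor replicate 1, and says nothing of firmness.

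Kcnj2, the strong inward rectifier of skeletal and heart muscle, lay at -3.45, -3.02 and -3.96 in healthy skin and -5.57, -6.95 and -5.52 in tumors. The groups were apart, with 1 of 3 tumor arrays above background, and Kcnj2 fell by 2.54 ± 0.47 (SE), 5.80-fold, limma adjusted p 0.00898. The probes of Kcnj16 and Kcnj2 are neighbours on chromosome 11 (mm9), at 110889223 and 110936203. A promoter of Kcnj16 with an E-box, which begins 149 bases before the start, is shown because the gene was above background on every healthy array and on no tumor array. Of its other 3 starts 1 also holds the letters.
Kcnj16, chr11:110967783-110968082, plus strand: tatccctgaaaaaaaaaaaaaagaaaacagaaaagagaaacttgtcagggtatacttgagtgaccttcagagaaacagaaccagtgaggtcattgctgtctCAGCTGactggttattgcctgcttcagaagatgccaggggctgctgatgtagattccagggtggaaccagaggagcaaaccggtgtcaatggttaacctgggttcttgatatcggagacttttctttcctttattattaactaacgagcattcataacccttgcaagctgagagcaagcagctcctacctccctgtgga

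Two-pore-domain channels were the best detected family, with 11 of 14 genes measured, and their median difference was -0.12. It turned positive under quantile (0.09), median (0.25) and spike-in (0.77) scaling. The median was 0.005 with normexp, another background correction, 0.007 with the authors' deposited values and -0.57 with the slide row as a block. Besides Kcnk1, which rose, 2 were lower and 8 did not pass. The lower share, 18.2%, was near the 15.6% of all features. Kcnk10, a leak channel opened by stretch and lipids, stood at -4.07, -2.98 and -2.53 in healthy skin and -5.64, -7.75 and -4.91 in tumors. All tumors lay lower, but 1 of 3 tumor arrays was above background, and Kcnk10 fell by 2.91 ± 0.75 (SE), 7.50-fold, with a limma adjusted p of 0.0285. Kcnk15 fell 2.61-fold (limma adjusted p 0.0414).

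**Figure D2:**
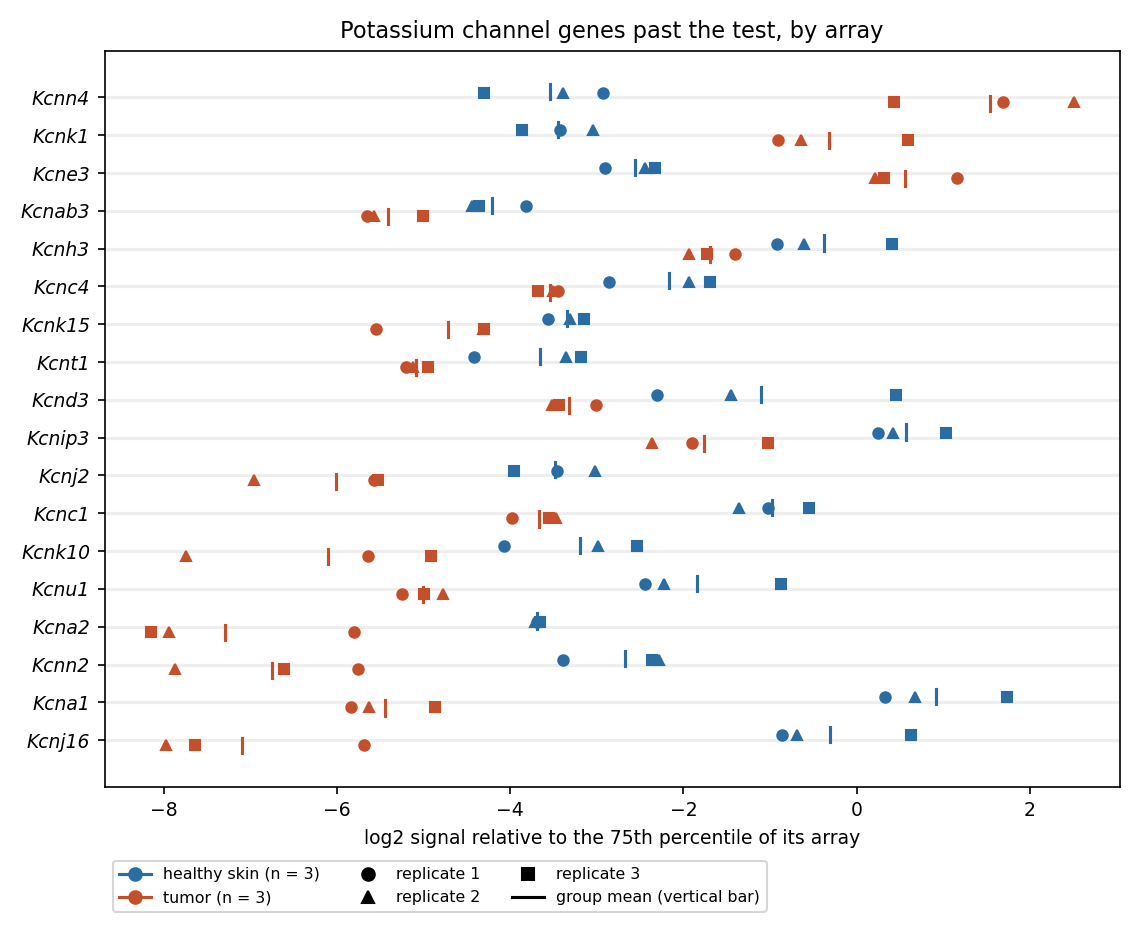
Relative log2 signal (x axis) of the potassium channel genes past the test in each array, without those not reported here, with healthy skin in blue, tumors in red, the replicate as the marker shape and the group mean as a vertical bar. In every gene drawn the 3 tumor points lie on one side of the 3 healthy points, above them in Kcnn4, Kcnk1 and Kcne3 and below them in the others.

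The firmness of the calls differed. Kcna1 and Kcnu1 passed in each of the 20 alternatives in which they were measured, and Kcnc1 lost the call in 1, spike-in scaling. Kcna1, Kcnu1 and Kcnc1 were above background on all 3 healthy arrays and on 2 of 3 tumor arrays. The filter for all 6 arrays left them unmeasured, and healthy skin alone was enough for the main filter. The sizes moved more: the difference of Kcna1 ran from -7.17 to -3.93 and that of Kcnu1 from -4.13 to -1.35. Kcnj16, Kcnn2 and Kcna2 also passed in all 20, but they were above background in healthy skin alone. Their fitted differences, which ran from -7.73 to -3.08, from -4.56 to -1.13 and from -4.36 to -0.82, rest on tumor signals not above background and say nothing of firmness. Kcnj2 and Kcnip3 lost it in 3. Kcnk10 lost it in 10 of 20 alternatives, Kcnd3 in 11 of 21, Kcnt1 in 13 of 20, Kcnh3 in 13 of 21, Kcnc4 in 14 of 21, Kcnab3 in 15 of 20 and Kcnk15 in 16 of 20. Leaving out tumor replicate 1 or healthy replicate 2 ended the calls of all 7 of these, leaving out healthy replicate 3 those of Kcnk10, Kcnt1, Kcnh3, Kcnc4 and Kcnk15, and leaving out healthy replicate 1 those of Kcnab3 and Kcnk15. Leaving out tumor replicate 2 ended all of them but that of Kcnk10, and leaving out tumor replicate 3 all but those of Kcnk10 and Kcnab3. The arrays of slide row 1 held healthy replicates 1 and 2, and those of row 2 healthy replicate 3 and all tumors. With the row as a block, which compares the tumors with healthy replicate 3 alone, Kcnk10, Kcnj2, Kcnk15 and Kcnab3 lost the call, with limma adjusted p of 0.0588, 0.0569, 0.0831 and 0.104.

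The potassium channel genes with the highest mean signal were not past the test. Kcna6, a delayed rectifier related to Kcna1, gave 4.26, 4.89 and 5.82 in healthy skin and 4.16, 2.62 and 3.98 in tumors. These are values of its brightest probe, and its other probes are given below. The groups were only just apart, and the difference of -1.40 ± 0.55 (SE) had a limma adjusted p of 0.0965. It passed with array weights (0.0356) and with the mean of the probes of the gene (0.00307). Kcna4, an A-type pore, gave 2.63, 1.94 and 1.24 in healthy skin and 3.65, 2.89 and 3.03 in tumors. All tumors lay higher, by 1.25 ± 0.42 (SE), with a limma adjusted p of 0.0638. Kcna4 passed as higher with the slide row as a block (difference 1.94, limma adjusted p 0.0256), with median scaling (0.0245) and without healthy replicate 1 (0.0416).

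Kcnk6, a two-pore-domain channel, overlapped, at 2.29, 2.65 and 1.32 in healthy skin and 3.23, 2.27 and 2.70 in tumors (difference 0.65, limma adjusted p 0.293). Kcnd1 also overlapped, at 0.42, 0.23 and 0.94 against 0.997, 0.95 and 0.71. The probe of Kcna4 holds a 12-base run of alternating T and G, as long as that of only 0.683% of all kept probes. It is shown from base 27 to 56 of the 60, with the run in capitals, because such a run is not particular to a gene, and whether it adds to the signal was not tested.
Kcna4 probe, 5′ to 3′, chr2:107138207-107138266 (mm9): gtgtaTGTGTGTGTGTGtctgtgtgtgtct

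Probes of a gene can differ, and 12 potassium channel genes had several kept probes. With every probe tested by itself, 4 of the 68 were higher, 23 lower and 41 not called, where 10.1% and 16.0% of all 34283 kept probes were higher and lower. No gene had probes called in opposite directions. In 6 genes some probes were called and others were not: Kcna5, Kcna6, Kcna7, Kcnj11, Kcnma1 and Kcnip3. These 6 were chosen after their values were seen. In 5 of them the called probe had the lower mean over the 6 arrays, and Kcnip3 was the exception. That mean includes the tumors and also chose the probe for the gene, so it favours probes that fall less. In healthy skin alone the called probe was the brighter one for Kcna7 (mean 0.23 against 0.14) and Kcnj11 (-2.36 against -3.80). It was the dimmer one for Kcna5, Kcna6 and Kcnma1.

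Kcna6 had the largest gap. Its brighter probe differed by -1.40, as above, while a probe some distance away on chromosome 6 gave 0.82, 0.96 and 2.15 in healthy skin and -4.20, -3.14 and -3.25 in tumors. This second probe was far lower in every tumor, with a difference of -4.84 ± 0.46 (SE), 28.7-fold, and a limma adjusted p of 9.5e-04. Another probe of Kcna6, at 126686922 to 126686981 and so close to the brighter one, was above background on none of the 6 arrays. The array annotation lists the brighter probe under a different transcript record from the rest of the Kcna6 probes. Kcna5, Kcna1 and Kcna6 are neighbours, and their kept probes lie in one stretch of chromosome 6 (mm9), between 126482573 and 126686761. Kcna5, a delayed rectifier of muscle, differed by -2.45 at its dim probe (limma adjusted p 0.0351) and by -0.68 at the bright one.

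Kcnj11 encodes the pore of the ATP-sensitive channel. One probe gave -1.86, -1.95 and -3.26 in healthy skin and -5.76, -7.86 and -6.18 in tumors. It was above background on no tumor array and at least 6.73-fold lower (limma adjusted p 0.00400). That p rests on tumor signals not above background and says nothing of firmness. The probe with the higher mean was scattered within both groups, at -0.40, -4.51 and -6.49 against -3.73, -7.85 and -3.67, and its difference of -1.29 ± 1.67 (SE) was not past the test (limma adjusted p 0.591).

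Kcna7, a voltage-gated pore known from skeletal muscle, gave 0.93, 1.03 and -1.26 in healthy skin and -2.02, -2.77 and -2.77 in tumors at its called probe. The tumors were all lower, with a difference of -2.75 ± 0.63 (SE) and a limma adjusted p of 0.0186, and the other probe differed by -0.37. Kcnma1 differed by -1.49 (limma adjusted p 0.0106) and by -0.99 at its 2 kept probes, and Kcnip3 by -2.32 and by -0.78. The first 30 bases of the probe pairs of Kcna6, Kcna7 and Kcnj11 are shown to tell apart what each probe reads, the called probe first.
Kcna6, chr6:126658424-126658483 (mm9), called: gagagttgctggtctgatcaaaggagagga
Kcna6, chr6:126686702-126686761 (mm9), not called: tgtcatggtccctctttgtgcctcagttcc
Kcna7, chr7:52666474-52666533 (mm9), called: gtcagcatcccttagagccaaggaaggtca
Kcna7, chr7:52664902-52664961 (mm9), not called: aggtgtgctcaccatctctctgcctgtgcc
Kcnj11, chr7:53353119-53353178 (mm9), called: agaaaaagaaatattgggaagttcagcctg
Kcnj11, chr7:53354095-53354154 (mm9), not called: agtgtggctgtggcgaaggccaagcccaag

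**Figure D3:**
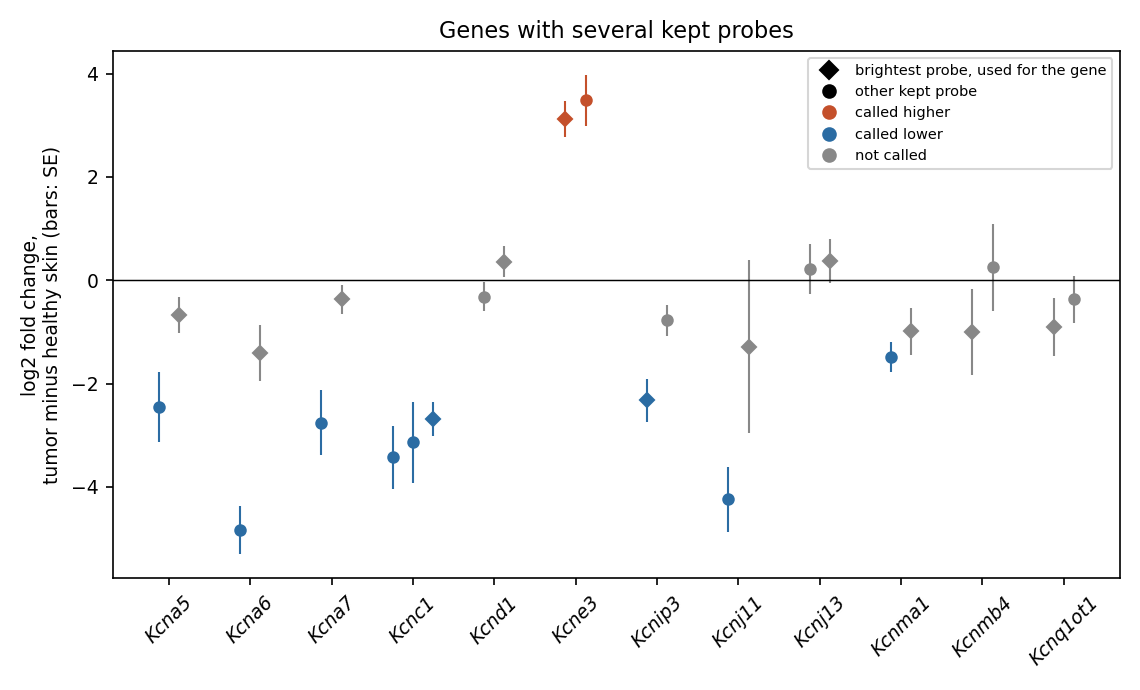
Log2 difference (tumor minus healthy skin, y axis, with the standard error as bars) of each kept probe of the 12 potassium channel genes with several kept probes, each probe tested by itself. Diamonds mark the brightest probe, which stood for the gene; the probes of Kcna6 differed most, at -4.84 and -1.40, and all 3 probes of Kcnc1 were called lower.

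The other 40 potassium channel genes on the array were not measured. For 24 of them no probe was above background on any array, among them Kcnh2, Kcnj1, Kcne1 and Kcnq3, and for 16 a probe was on 1 or 2 arrays. Apart from Kcnj10, those on 2 arrays of one group were Kcna3, Kcnf1, Kcnk12 and Kcnt2 in tumors and Kcng1 and Kcnip4 in healthy skin. Kcna3, the voltage-gated channel of lymphocytes, gave -7.24, -6.97 and -4.40 in healthy skin and -5.11, -5.07 and -5.08 in tumors, which overlap.

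Related genes under other names were counted in the same fit, in which 10.3% of all features were higher and 15.6% lower. Of 7 measured accessory subunits of the channels, 1 was higher and 3 were lower, with a median of -0.84 (0.05 under spike-in scaling). Lrrc26, which lets Kcnma1 open at resting voltage in secretory epithelia, gave -5.80, -5.34 and -4.52 in healthy skin and 3.40, 3.41 and 0.01 in tumors. No healthy array was above background, and Lrrc26 was at least 138-fold higher (limma adjusted p 0.00193). The tumors alone let Lrrc26 pass the filter. Its p rests on healthy signals not above background and says nothing of firmness. Amigo1, a membrane protein that joins voltage-gated channels, fell by 2.49 (limma adjusted p 0.0191), and Abcc9, a regulatory subunit of ATP-sensitive channels in muscle and vessels, fell by 2.18 (limma adjusted p 0.0101).

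Pumps that import potassium in exchange for sodium or protons had 3 higher and 6 lower of 14 measured (median -1.59, and -0.70 under spike-in scaling). Atp1b2, a beta subunit known from muscle and glia, differed by -3.26, and Fxyd4, a regulator of the pump, by 3.52. Cation-chloride cotransporters, which carry potassium with chloride, had 0 higher and 1 lower of 7, Slc12a2, which fell by 1.14, and 0 and 4 at an unadjusted limma p of 0.05 (median -0.77, and 0.13 under spike-in scaling). Voltage-gated sodium channels had 1 higher and 6 lower of 12 (median -1.34, and -0.44 under spike-in scaling), with Scn4b at -4.87, Scn3b at -3.69 and Scn7a at -3.19. Voltage-gated calcium channels had 0 higher and 8 lower of 16 by limma, with or without the adjustment (median -1.24, and -0.35 under spike-in scaling), led by Cacna1s, the voltage sensor of skeletal muscle, at -4.81, Cacnb1 at -3.11 and Cacna2d1 at -3.02. Chloride and anion channels had 2 higher and 6 lower of 19 (median -0.70, and 0.19 under spike-in scaling), with Clic5 at -4.73, Ano9 at -4.39 and Best2 at -3.80. HCN and cyclic nucleotide-gated channels had 0 called of 4, with a median of -0.40 (0.49 under spike-in scaling), and 0 at an unadjusted limma p of 0.05.

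Markers of several cell types also differed between the groups. Skeletal muscle markers were lower for 12 of 12, with a median of -4.47, and their summed level ran from 10.2 to 10.8 in healthy skin and from 5.14 to 6.52 in tumors (relative log2 signal). Adipocyte markers were lower for 6 of 7 (median -4.26, sums 6.84 to 8.89 and 6.07 to 7.76), and Schwann cell and nerve markers for 7 of 8 (median -2.58, or -2.32 with Cdh19 at its bound, sums 4.41 to 5.02 and 3.28 to 4.52), Cdh19 being above background on no tumor array. Sebaceous gland markers were lower for 4 of 5 (median -3.41, sums 2.40 to 3.43 and -0.06 to 0.94) and suprabasal keratinocyte markers for 4 of 6 (median -2.97, sums 9.94 to 10.3 and 6.06 to 7.98). Neutrophil markers were higher for 6 of 7 (median 5.35, sums 7.68 to 8.04 and 9.43 to 9.77). A sum follows its brightest genes. In tumors Fabp4 (7.42, 7.57 and 5.99) made up most of the adipocyte sum. Mbp (4.37, 2.92 and 2.95) made up most of the Schwann cell and nerve sum there. In healthy skin Csf3r (7.59, 7.93 and 8.02) made up most of the neutrophil sum. Fabp4, Mbp and Csf3r were not called, with differences of 0.90, 0.62 and -0.76, opposite in sign to the median of their lists. The part of these cell types in the differences of the potassium channel genes was not tested.

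Other marker lists had fewer genes called. Basal keratinocyte markers, which mark the epidermis, had 0 of 6 called by limma (1 higher and 1 lower at an unadjusted p of 0.05) and a median of 0.05, which was 0.41 with median scaling, 0.94 with spike-in scaling and -0.54 with the slide row as a block. They were bright in both groups (sums 9.30 to 10.2 and 9.63 to 9.89). Smooth muscle and pericyte markers were lower for 3 of 9, with Lmod1 above background on no tumor array, and T cell markers for 2 of 7. Endothelial, fibroblast and macrophage markers each had 1 higher and 1 lower, of 7, 6 and 7. Melanocyte markers had 0 called of 5 by limma, with 2 lower at an unadjusted p of 0.05 and a median of -1.97. Hair markers had 1 lower of 11, and their level differed widely within the groups, with medians of 5.13, -1.21 and -1.34 in healthy replicates 1, 2 and 3 and 2.55, -5.44 and 2.72 in tumor replicates 1, 2 and 3. Healthy replicate 1 and tumor replicate 2 thus stood apart from the rest of their groups in hair markers, and the part of this in the differences of the potassium channel genes was not tested.

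**Figure D4:**
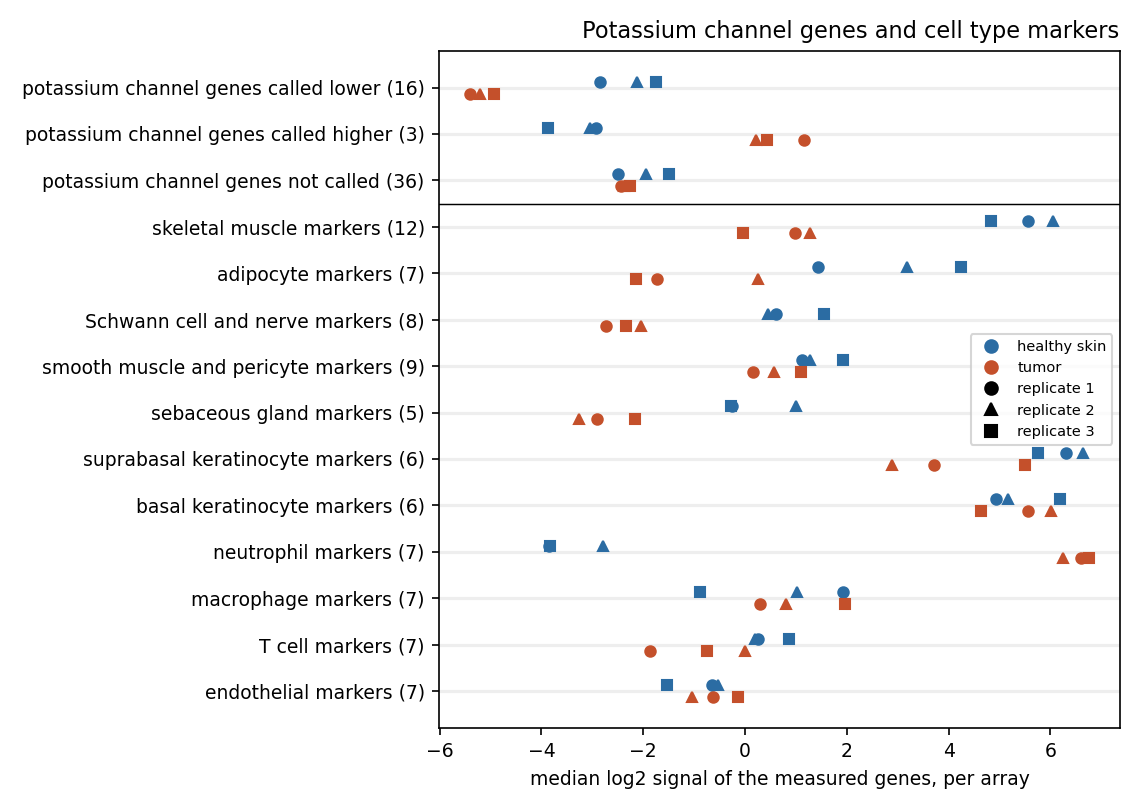
Median relative log2 signal (x axis) per array of the potassium channel genes called lower, called higher and not called, and of cell type marker lists, with the number of measured genes in brackets, healthy skin in blue and tumors in red. The median of the 16 lower genes ran from -2.84 to -1.74 in healthy skin and from -5.40 to -4.93 in tumors, and that of the skeletal muscle markers from 4.83 to 6.05 and from -0.04 to 1.27.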

How the data were processed

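Total RNA of 6 biopsies (0.2 µg each, RNA integrity number 9) was labelled with Cy3 and read on 1 slide, per the labels' protocols. The deposited intensity values are background-subtracted spot signals, extracted with Agilent Feature Extraction 10.7.3.1 per the file headers. The authors' deposited table holds log2 values, used here as an alternative; its ranks equal those of the median spot signal (Spearman correlation 1), while its centring is not given in the sources used here. For the authors' own processing, limma is named in the submitters' processing notes.

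Here log2 signals were centred on the 75th percentile of the 59305 spots outside the controls of each array. Outlier flags removed single spots, repeated spots of a probe were averaged and no spot was saturated. Probes well above background on at least 3 arrays were kept (34283 of 55681). The test was that of limma 3.58.1 (R 4.3.3), with lmFit and then eBayes, two-sided, adjusted after Benjamini and Hochberg. Of these steps the limma fit alone was tested on simulated data. Of the 55 measured potassium channel genes, 51 matched RefSeq by accession and 4 by symbol. The array annotation gives probe positions in mm9; exons and UTRs of that build were not used here. Promoters are from RefSeq, GRCm38.p6, a different build.

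Values in every array are given for up to 12 genes with the largest rise and 12 with the largest fall past the test, and for the 5 brightest not past it. Up to 3 called genes of each pathway list are named. Some genes that this rule names are not reported here. Other genes were named after their values were seen. The members, lists, tests and alternatives were chosen with earlier results of these data known. The alternatives were other scalings, background correction with normexp (offset 50), the authors' values, other filters and summaries of probes, a variance trend, array weights, blocks, leaving out arrays, and treat. The number of arrays limits the precision.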

Additional observations from a re-analysis of the deposited data

How the results depend on the processing

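The 3 higher genes and Kcna1 and Kcnu1 kept their direction and call in all alternatives in which they were measured. Kcnn4, Kcna1 and Kcnu1 were not measured with the filter for all 6 arrays. The number of lower potassium channel genes, 16, was 10 with quantile normalization or median scaling, 5 with spike-in scaling, 9 with normexp, with the authors' deposited values or with no detection filter, 4 among genes above background on all 6 arrays, 10 without healthy replicate 3 and tumor replicate 1 together, and 7 with treat against a log2 fold change of 1. Leaving out 1 array at a time gave 9 to 14. The number was 14 with a variance trend, and it rose to 20 with the mean of the probes of a gene and to 21 with array weights. In each of these settings the share of lower genes lay above that of all features. The shares were closest with all 6 arrays above background, at 13.8% against 12.8%. The number of higher genes, 3, was 5 with a block for the slide row. The median difference, -0.66, was -0.29 with median scaling, -0.24 with normexp, -0.36 with the authors' values and -0.36 with no filter, and turned to 0.23 with spike-in scaling. Kcnd1 turned to -0.052 with a block for the slide row. The number of all features called, 6420, was 2686 with spike-in scaling, 3920 with no filter, 9857 with array weights, 1666 with treat, and 3840 to 5458 when 1 array was left out. The stricter threshold of treat leaves fewer calls by construction; for the other settings the cause was not tested.

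The titles give both groups the numbers 1, 2 and 3. Deviations of same-numbered samples correlated at 0.10, 0.13 and -0.08, and those of samples with different numbers at -0.27 to 0.17. With 3 samples centred in each group, such values cannot tell whether the numbers pair the samples. With the replicate block 3 potassium channel genes were higher and 13 lower, with a median of -0.66, and 5470 features were called. Signal near background limits the genes with few tumor arrays above it: Kcnj16, Kcnn2 and Kcna2 have only a bound there, and Kcnab3, Kcnj2 and Kcnk10 were above it on 1 of 3 tumor arrays.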
